A study of Rattus norvegicus with 18 samples.

Results

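The genes described here encode the enzymes and adaptors that carry a signal from a receptor at the cell surface to the inside of the cell: G protein subunits, the enzymes that make and break down second messengers, protein kinases and the phosphatases that oppose them. They were measured by RNA-seq of poly(A) RNA in the L5 dorsal root ganglion (DRG), the cluster of sensory neuron cell bodies of the fifth lumbar nerve, of Wistar rats. The members were the genes whose symbol begins with a fixed set of family names (Prka, Prkc, Prkd, Prkg, Camk, Pde, Adcy, Plc, Dgk, Akap, Gna, Gnb, Gng, Rgs, Mapk, Map2k, Map3k, Map4k, Pik3, Pip4k, Pip5k, Dusp and Ptpn, for Pde and Plc only names with an isoform number) and which had reads in at least 3 of 6 libraries. The members described here are 53 of the 26172 genes in the deepest table, and all 53 had reads in all 6 libraries, with 50 to 18209 reads per library. Only 1994 genes of the table had a symbol at hand, so the members are not whole families: no phospholipase C, Prkg, Gng or Pip4k gene was among them, and neither was Camk2a.

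The study compared ganglia 7 days after spinal nerve transection (SNT), in which the L5 spinal nerve of male rats was cut, with ganglia of naive rats, which had no surgery, so that transection and surgery as such cannot be told apart. Tissue from 4 rats was pooled for each sample, and 3 SNT and 3 naive samples, from separate animals of the same strain, each gave 1 library. Each library was sequenced in 3 runs, labelled 50 M, 25 M and 17 M reads; these runs are technical replicates, and the values below are those of the 50 M runs unless stated. At that depth the SNT libraries held 15000789 to 17480115 exonic reads and the naive libraries 18588873 to 19031166. The values are normalized counts, that is, the reads of a gene divided by the size factor of the library, and 3 values in a row always belong to libraries 1, 2 and 3 of a group.

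In a sensory neuron, G proteins pass the signal of a receptor to adenylyl cyclases, which make cyclic AMP, or to phospholipases, which release diacylglycerol and calcium. Cyclic AMP acts through protein kinase A (PKA), diacylglycerol through protein kinase C (PKC) and protein kinase D, and calcium through calmodulin and its kinase CaMKII. These kinases and the MAP kinases phosphorylate ion channels and transcription factors, and are known for setting the excitability of nociceptors, the neurons that respond to painful stimuli. Most of these proteins are made in many cell types, so that in a whole ganglion fewer cells of a type and less RNA per cell cannot be told apart.

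Cell type markers differed between the groups in the same libraries. The summed level of 15 sensory neuron markers was 430400 to 493243 normalized counts in naive and 165092 to 300144 in SNT libraries, and 12 of the 15 fell and none rose. A large part of this sum was the single gene Nefh, with a mean of 203041 in naive and 56085 in SNT libraries. The markers Stmn2, Prph and Elavl3 did not pass the test, with log2 fold changes of 0.16, -0.28 and -0.35. Of 10 markers of myeloid cells or other leukocytes 9 rose, with a summed level of 13728 to 14602 in naive and 28429 to 54956 in SNT libraries. All 10 fibroblast or connective tissue markers rose, and their summed level was 88532 to 132971 in naive and 180033 to 283020 in SNT libraries. The summed level of 8 Schwann or satellite glial cell markers overlapped, with 303291 to 552828 in naive and 365970 to 460639 in SNT libraries, and 3 of the 8 rose. The 3 genes listed as skeletal muscle markers all fell. The marker lists were chosen with earlier results of these data known, so the counts of markers that rose or fell are not independent support. No marker was at 0 in any list, and the part of these shifts in the results below was not tested.

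**Figure D1:**
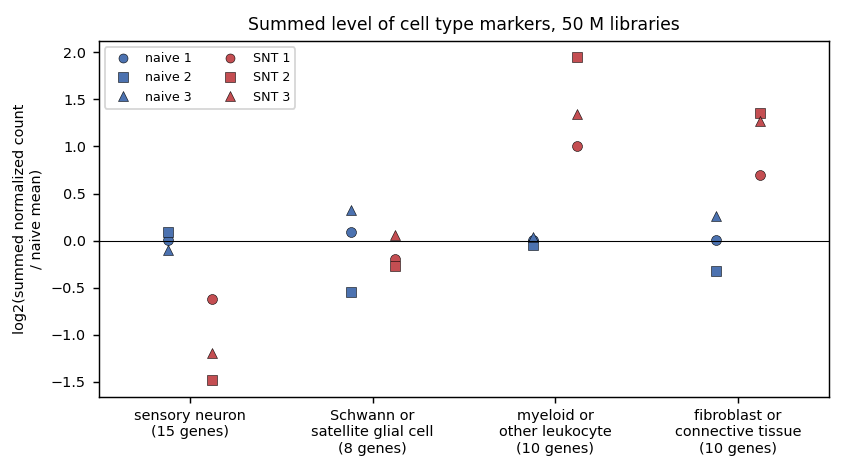
Summed normalized counts of the markers of each cell type in the 6 libraries of 50 M reads, as log2 of the ratio to the mean of the 3 naive libraries; each point is 1 library. The 3 SNT libraries lie below the naive libraries for the sensory neuron markers and above them for the leukocyte and fibroblast markers, and SNT 1 lies nearest to the naive libraries in all 3.

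The library SNT 1 stood apart from the other SNT libraries. It was the SNT library nearest to the naive mean in 41 of the 45 members that differed between the groups, against 80.9% of all genes that did, and the distance from the naive mean followed the order SNT 2, SNT 3, SNT 1 in 35 members, against 59.7% of all such genes. The summed sensory neuron markers stood in the same order, with 165092 in SNT 2, 202104 in SNT 3 and 300144 in SNT 1. So did the leukocyte markers, with 54956, 36003 and 28429 in SNT 2, SNT 3 and SNT 1. The fibroblast markers did as well, with 283020, 266517 and 180033, while the groups of the glial markers overlapped. The 4 members in which SNT 1 was not the nearest were Dusp26, Ptpn5, Pik3ca and Pip5k1b, and all 4 rose.

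At a false discovery rate of 0.1 (limma, adjusted over all genes tested), 45 of the 53 members were differentially expressed, 23 of them higher and 22 lower in SNT than in naive ganglia. Differential expression was common in this tissue: 58.5% of the 17930 genes tested passed the same threshold, 29.2% higher and 29.4% lower, and among the 1994 genes with a symbol, which is the set the members come from, the share was 71.4%, 35.2% higher and 36.2% lower. The groups did not overlap in 45 members, against 62.1% of all genes tested and 75.8% of those with a symbol. The median log2 fold change of the members was -0.023 and that of all genes tested 0.0095, and the changes went both ways. Scaling the libraries to equal totals instead moved the median of all genes by 0.152, raised the share of called genes that were higher from 49.8% to 62.5% and called 25 members higher and 16 lower; no called member changed direction. The median absolute log2 fold change of the members was 0.62, against 0.49 for all genes tested and 0.41 for those with a symbol. An absolute log2 fold change of at least 0.8 was reached by 9 members that rose and 8 that fell, against 14.8% and 13.2% of all genes tested and 10.9% and 10.6% of those with a symbol. These 17 members were also differentially expressed, without overlap between the groups, in the 25 M and 17 M runs.

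**Figure D2:**
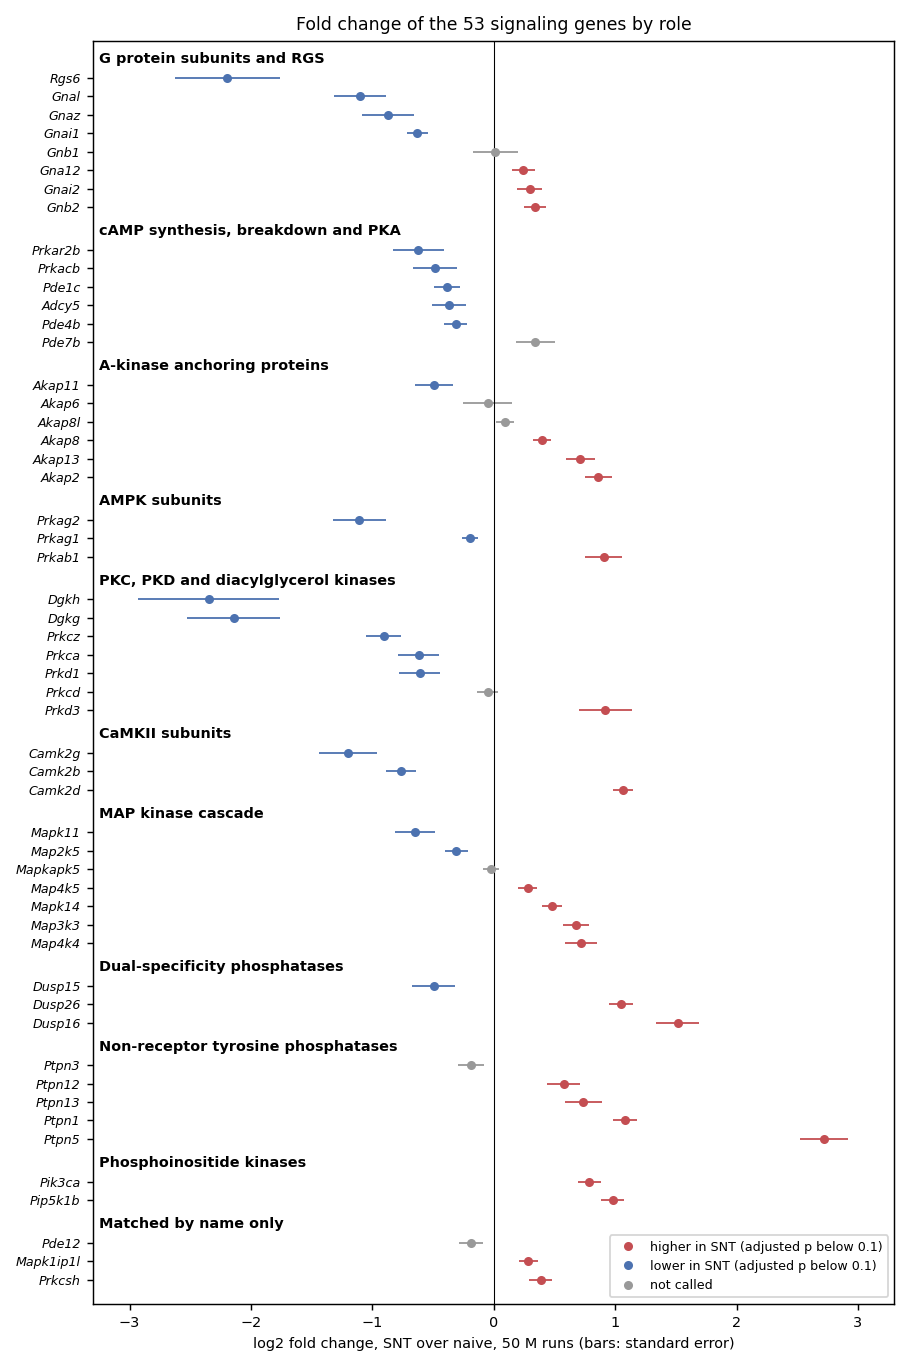
Log2 fold change of each of the 53 members, SNT over naive, at 50 M reads, grouped by role; bars are standard errors of the limma fit (3 libraries per group). The 23 members in red were higher, the 22 in blue lower, and the 8 in grey did not pass the test; Ptpn5 has the largest rise (2.72) and Dgkh the largest fall (-2.35).

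**Figure D3:**
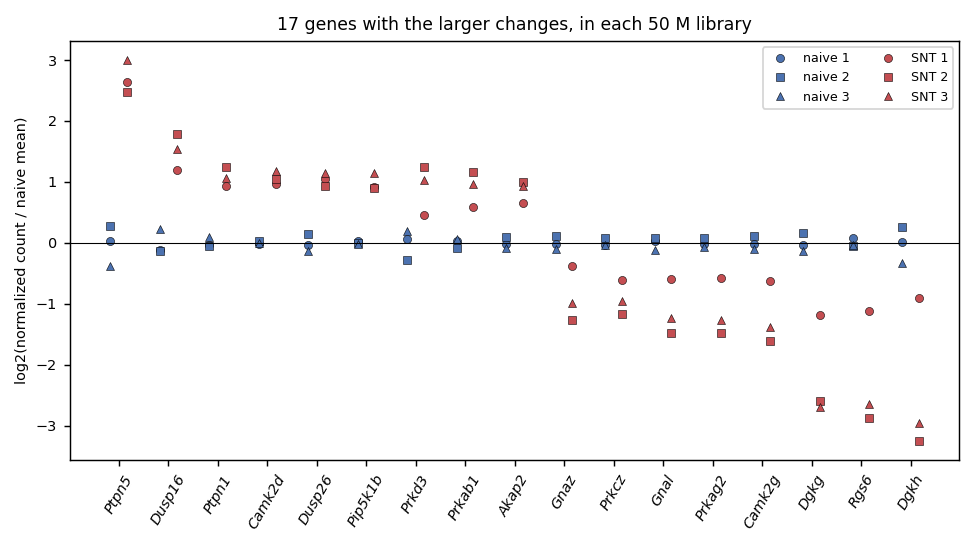
Normalized count of the 17 members with an absolute log2 fold change of at least 0.8 in each of the 6 libraries of 50 M reads, as log2 of the ratio to the mean of the 3 naive libraries; each point is 1 library. No SNT point overlaps the naive points of its gene, and SNT 1 lies well above SNT 2 and SNT 3 in the genes that fell, most of all in Dgkg, Rgs6 and Dgkh.

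Of the 8 genes for G proteins and their regulators, 4 fell, 3 rose and 1 did not pass the test. For comparison with this and the role counts below, 35.2% of genes with a symbol rose and 36.2% fell. Each role holds few genes, so such counts do not set a role apart. The gene of these 8 that fell most, Rgs6, encodes a regulator that speeds up the GTPase of inhibitory G proteins and so ends their signal. It had 424, 388 and 391 normalized counts in the naive libraries and 185, 54.3 and 64.2 in the SNT libraries. All SNT libraries were below all naive ones, but SNT 1 held far more reads than SNT 2 or SNT 3. The mean in SNT was 0.253 of that in naive libraries (log2 fold change -2.20 ± 0.43, adjusted p = 0.00761), and 0.148 when SNT 1 was left out.

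Gnal, which encodes the stimulatory alpha subunit Golf, fell from 1859, 1926 and 1689.9 in naive to 1207, 656 and 771 in SNT libraries, a ratio of 0.481 (log2 fold change -1.10 ± 0.21, adjusted p = 0.00733). Gnaz, the gene of the Gz alpha subunit, which inhibits adenylyl cyclase, had 776, 852 and 738 normalized counts in naive and 608, 329 and 397 in SNT libraries, a ratio of 0.564 (log2 fold change -0.87 ± 0.22, adjusted p = 0.0158). In both genes the groups were apart and SNT 1 was the highest SNT library. The 2 genes of inhibitory Gi alpha subunits among the members moved in opposite directions. Gnai1 fell from 2767, 2663 and 2676 to 1960.3, 1621 and 1675, a ratio of 0.648 (log2 fold change -0.63 ± 0.089, adjusted p = 0.00377). Gnai2, in contrast, rose slightly from 5867, 5864 and 6126 to 6541, 8256 and 7215, a ratio of 1.23 (log2 fold change 0.30 ± 0.10, adjusted p = 0.0492), but its adjusted p reached 0.145 when naive 1 was left out.

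The beta subunit gene Gnb2 rose from 1295, 1316 and 1284 to 1517, 1843 and 1591 (log2 fold change 0.34 ± 0.088, adjusted p = 0.0181). Its relative Gnb1, with 283, 291 and 226 normalized counts in naive and 226, 340.0 and 250.1 in SNT libraries, did not pass the test (log2 fold change 0.014 ± 0.18, adjusted p = 0.96), and its groups overlapped. The alpha subunit gene Gna12 had 3877, 3425 and 3999 in naive and 4095, 4807 and 4475 in SNT libraries; the rise passed the test (log2 fold change 0.24 ± 0.10, adjusted p = 0.074) but not when naive 2 was left out, where the adjusted p was 0.22.

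Among the 6 genes for the synthesis and breakdown of cyclic AMP and for PKA itself, 5 fell and none rose (29.4% of all genes tested and 36.2% of those with a symbol fell), with log2 fold changes between -0.62 and -0.31 in those that fell. With equal totals 2 of the 6 fell and 1 rose, and Pde1c was the only 1 of the 5 to pass the test under all 18 alternatives. The largest fall was that of Prkar2b, the type II beta regulatory subunit that holds PKA inactive until cyclic AMP binds. Its values were 4001, 4104 and 3875 in naive and 3685, 2036 and 2329 in SNT libraries (log2 fold change -0.62 ± 0.21, adjusted p = 0.0438). SNT 1 was close to the naive libraries and the other SNT libraries were far below, and the adjusted p was 0.138 without SNT 3. The catalytic subunit gene Prkacb had 207, 275 and 223 in naive and 207, 140.1 and 159.5 in SNT libraries (log2 fold change -0.48 ± 0.18, adjusted p = 0.0647). SNT 1 and naive 1 were at the same level here, so the groups overlapped, and the adjusted p was 0.195 without naive 2.

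Adcy5, an adenylyl cyclase that Gi proteins inhibit, had 781, 922 and 803 normalized counts in naive and 788, 583 and 580.5 in SNT libraries (log2 fold change -0.37 ± 0.14, adjusted p = 0.0636), again with SNT 1 within the naive range. This call was lost, with an adjusted p of 0.223, with scaling to equal totals. Pde1c, a phosphodiesterase that calcium and calmodulin activate, fell from 1235, 1187 and 984 to 920.3, 859 and 820.2 (log2 fold change -0.38 ± 0.10, adjusted p = 0.0218), and SNT 1 was the highest SNT library, below all naive ones. The phosphodiesterases Pde4b and Pde7b both break down cyclic AMP, and their log2 fold changes had opposite signs. Pde4b fell from 489, 486 and 469.7 to 419.9, 395 and 349 (log2 fold change -0.31 ± 0.094, adjusted p = 0.0302, but 0.206 with equal totals). Pde7b had 139.5, 183 and 174 in naive and 183, 242 and 204 in SNT libraries and did not pass the test at 50 M (log2 fold change 0.34 ± 0.16, adjusted p = 0.12), although its groups did not overlap and it was called higher in the 25 M and 17 M runs.

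A-kinase anchoring proteins tether PKA at particular places in the cell. Of their 6 genes 3 rose, 1 fell and 2 did not pass the test. Akap2 rose from 1711, 1861 and 1645 to 2722, 3475 and 3322, a ratio of 1.82 (log2 fold change 0.86 ± 0.11, adjusted p = 0.00304). Akap13 rose from 2282, 2351 and 2122 to 3121, 4092 and 3937, a ratio of 1.65 (log2 fold change 0.71 ± 0.12, adjusted p = 0.00484). In both, every SNT library was above every naive one. The nuclear anchoring protein gene Akap8 rose by less, from 1489, 1349 and 1495 to 1858, 1964 and 1883 (log2 fold change 0.40 ± 0.072, adjusted p = 0.00627). Its close relative Akap8l had 836, 822 and 822 in naive and 908, 820.1 and 920.3 in SNT libraries. Akap8l did not pass (log2 fold change 0.092 ± 0.074, adjusted p = 0.338), but over the alternatives its adjusted p went as low as 0.0234. The anchor that fell was Akap11, which binds both PKA and the kinase GSK3, from 11671, 12207 and 10469 to 9764, 6566 and 8297 (log2 fold change -0.50 ± 0.16, adjusted p = 0.0356, but 0.112 without naive 2). Akap6, the anchor at the nuclear envelope, had 15695, 17019 and 12914 in naive and 17865, 11061 and 15775 in SNT libraries, which overlapped (log2 fold change -0.049 ± 0.20, adjusted p = 0.859).

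AMP-activated kinase (AMPK) senses the energy state of the cell through its gamma subunits, which bind AMP and ATP, and its beta subunits hold the complex together. Of the 3 subunit genes among the members 1 rose and 2 fell. The beta subunit gene Prkab1 rose from 295, 271 and 301 to 437, 643 and 565, a ratio of 1.9 (log2 fold change 0.90 ± 0.15, adjusted p = 0.00503). The gamma subunit gene Prkag2 fell from 1819, 1945 and 1758 to 1231, 657 and 765, a ratio of 0.481 (log2 fold change -1.11 ± 0.22, adjusted p = 0.00771). For both genes the groups were apart, with SNT 1 on the side of the naive libraries. The other gamma subunit gene, Prkag1, fell only from 1493, 1458 and 1431 to 1330.4, 1235 and 1252 (log2 fold change -0.20 ± 0.066, adjusted p = 0.0416), and its adjusted p was 0.642 with the libraries scaled to equal totals.

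Beside Rgs6, the largest falls were those of the diacylglycerol kinase genes. Diacylglycerol kinases convert diacylglycerol, the activator of PKC, to phosphatidic acid and so end its signal. Dgkh had 1886, 2227 and 1487 normalized counts in naive and 995, 197 and 239.7 in SNT libraries, and Dgkg had 692, 799.9 and 645 and 314, 117 and 110.4. In both genes SNT 1 stood between the naive libraries and the other SNT libraries, which were far below. The ratio of SNT to naive means was 0.256 for Dgkh (log2 fold change -2.35 ± 0.58, adjusted p = 0.0156) and 0.117 without SNT 1. For Dgkg it was 0.254 (log2 fold change -2.14 ± 0.39, adjusted p = 0.0062) and 0.16 without SNT 1.

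Of the kinases that respond to diacylglycerol and their relatives, 3 fell, 1 rose and 1 did not pass the test. Prkcz, an atypical PKC that needs no diacylglycerol, fell from 1583, 1700.3 and 1573 to 1059.6, 719 and 839, a ratio of 0.539 (log2 fold change -0.91 ± 0.14, adjusted p = 0.00432). Prkca, the conventional calcium-dependent PKC alpha, fell from 2369.9, 2304 and 2089.6 to 1847, 1154 and 1475, a ratio of 0.662 (log2 fold change -0.62 ± 0.17, adjusted p = 0.0207). Both were lower in every SNT library than in any naive one, whereas Prkcd, encoding PKC delta, which diacylglycerol activates without calcium, overlapped. It had 2024, 2205 and 1899.8 in naive and 1986, 2080.1 and 1845 in SNT libraries (log2 fold change -0.051 ± 0.085, adjusted p = 0.645). The genes of protein kinase D, which PKC activates, moved apart. Prkd1 fell from 498, 476 and 471 to 408, 257 and 298 (log2 fold change -0.61 ± 0.17, adjusted p = 0.0226), and Prkd3 rose from 656, 516 and 715 to 859, 1489 and 1279.9, a ratio of 1.92 (log2 fold change 0.92 ± 0.22, adjusted p = 0.0139).

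All 3 CaMKII genes among the members changed (71.4% of genes with a symbol did), and not in the same direction. CaMKII is a holoenzyme assembled from subunits encoded by separate genes, and it stays active after the calcium signal that switched it on has ended. Camk2d, the gene of the delta subunit, had 3329, 3459 and 3355 normalized counts in naive and 6571, 6993 and 7675 in SNT libraries. The libraries of each group were close together, and Camk2d had the smallest adjusted p of the members after Ptpn5, with a ratio of 2.09 (log2 fold change 1.06 ± 0.083, adjusted p = 0.000919). Camk2g, the gamma subunit gene, fell from 2636, 2861 and 2494 to 1722, 869 and 1026, a ratio of 0.453 (log2 fold change -1.20 ± 0.24, adjusted p = 0.00774). Camk2b, the beta subunit gene, fell from 1567, 1502 and 1615 to 1081, 783 and 914, a ratio of 0.593 (log2 fold change -0.77 ± 0.12, adjusted p = 0.00455). Both genes that fell were lower in every SNT library than in any naive one, with SNT 1 the highest of the 3.

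The 250 bases upstream of the RefSeq start of the 3 CaMKII genes are shown because these genes moved in opposite directions within 1 family. The sequences are from RefSeq on build GRCr8, 5′ to 3′ in the direction of the gene, and not from the build on which the reads were counted. They lie at chr14:85147945-85148194 on the minus strand for Camk2b, at chr15:3553106-3553355 on the plus strand for Camk2g and at chr2:217698301-217698550 on the plus strand for Camk2d. Capitals mark the GC box (GGGCGG) and the half-site of the cyclic AMP response element (TGACG), on either strand.
Camk2b: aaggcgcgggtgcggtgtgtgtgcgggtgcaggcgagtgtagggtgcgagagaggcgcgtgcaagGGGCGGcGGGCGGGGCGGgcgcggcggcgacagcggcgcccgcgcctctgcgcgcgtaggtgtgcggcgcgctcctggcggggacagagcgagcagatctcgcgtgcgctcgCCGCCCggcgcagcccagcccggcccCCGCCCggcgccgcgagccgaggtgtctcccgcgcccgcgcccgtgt
Camk2g: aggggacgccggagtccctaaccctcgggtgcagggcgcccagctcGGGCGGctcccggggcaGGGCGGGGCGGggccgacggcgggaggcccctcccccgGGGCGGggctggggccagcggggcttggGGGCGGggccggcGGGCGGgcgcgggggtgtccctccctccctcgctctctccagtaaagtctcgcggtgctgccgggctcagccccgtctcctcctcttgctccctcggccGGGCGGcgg
Camk2d: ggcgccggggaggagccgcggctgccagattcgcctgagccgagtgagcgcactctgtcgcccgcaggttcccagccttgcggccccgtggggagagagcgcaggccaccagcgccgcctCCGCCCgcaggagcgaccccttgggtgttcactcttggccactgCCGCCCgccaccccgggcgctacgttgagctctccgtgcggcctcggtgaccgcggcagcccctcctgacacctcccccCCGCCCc
The GC box occurred 5 times in the window of Camk2b, 7 times in that of Camk2g and 3 times in that of Camk2d, counting overlapping matches, and TGACG in none of them. Windows of 45 members could be matched by symbol, 1 per gene. The GC box was present in 34 of them, in 14 of 18 members that rose and 17 of 21 that fell, and in 30.5% of all 33469 windows in the table. TGACG was present in 8 of the 45, in 5 of the 18 that rose and 3 of the 21 that fell, and in 18.2% of all windows. The windows of the whole table were not limited to genes with reads here, so members and all windows are not like sets. These are letter matches within a window and not evidence of binding.

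MAP kinases are switched on by a chain of kinases (MAP4K, MAP3K, MAP2K, MAPK) and pass growth factor and stress signals on. Of the 7 genes of this cascade described here 4 rose, 2 fell and 1 did not pass the test. Among genes with a symbol 35.2% rose and 36.2% fell. The upstream kinases were among those that rose. Map4k4 rose from 5734, 4944 and 5993 to 7723, 10221 and 9558, a ratio of 1.65 (log2 fold change 0.72 ± 0.13, adjusted p = 0.0066). Map3k3, encoding MEKK3, rose from 865, 757 and 867 to 1205, 1502 and 1277, a ratio of 1.6 (log2 fold change 0.67 ± 0.11, adjusted p = 0.00456), and Map4k5 rose by less, from 1281, 1174 and 1302 to 1448, 1592 and 1516 (log2 fold change 0.28 ± 0.075, adjusted p = 0.0212). Map2k5, the activator of ERK5, fell from 503, 485 and 427 to 398, 366 and 376 (log2 fold change -0.31 ± 0.095, adjusted p = 0.0329), a call lost with equal totals (adjusted p = 0.209).

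The genes of the p38 MAP kinases, which stress signals activate, moved apart. Mapk11, encoding p38 beta, fell from 1657, 1962 and 1607 to 1395, 906 and 1075, a ratio of 0.646 (log2 fold change -0.65 ± 0.17, adjusted p = 0.0175). Mapk14, encoding p38 alpha, rose from 1379, 1259 and 1286 to 1697, 1975 and 1811, a ratio of 1.4 (log2 fold change 0.48 ± 0.082, adjusted p = 0.00543). The groups did not overlap in either gene. Mapkapk5, a kinase downstream of MAP kinases, had 645, 659 and 662 in naive and 619, 665 and 652 in SNT libraries (log2 fold change -0.023 ± 0.07, adjusted p = 0.803) and did not pass the test.

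The 3 largest rises among the members were those of the phosphatase genes Ptpn5, Dusp16 and Ptpn1. Ptpn5 encodes STEP, a brain-enriched tyrosine phosphatase that dephosphorylates MAP kinases, the kinase Fyn and glutamate receptor subunits. It had 195, 232 and 148 normalized counts in naive and 1190.1, 1059 and 1537 in SNT libraries. Every SNT library, SNT 1 included, was far above the highest naive library. The ratio was 6.59 (log2 fold change 2.72 ± 0.20, adjusted p = 0.000792), the largest fold change in either direction and the smallest adjusted p among the 53 members, and over the alternatives its adjusted p did not exceed 0.0131. Ptpn1, encoding PTP1B, which dephosphorylates the insulin receptor, rose from 459, 456 and 502 to 899.7, 1114 and 990.1, a ratio of 2.12 (log2 fold change 1.08 ± 0.10, adjusted p = 0.00161).

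The 250 bases upstream of the start of Ptpn5 (chr1:106816135-106816384 on the minus strand, GRCr8) are shown for the member with the largest rise, and those of Dgkg (chr11:91888786-91889035 on the plus strand) for 1 of the members with the largest falls, with the same letters in capitals.
Ptpn5: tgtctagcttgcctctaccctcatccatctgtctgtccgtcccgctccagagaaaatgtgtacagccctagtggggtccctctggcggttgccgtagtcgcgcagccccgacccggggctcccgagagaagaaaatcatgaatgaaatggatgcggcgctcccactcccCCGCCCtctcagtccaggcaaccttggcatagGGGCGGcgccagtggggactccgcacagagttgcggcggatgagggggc
Dgkg: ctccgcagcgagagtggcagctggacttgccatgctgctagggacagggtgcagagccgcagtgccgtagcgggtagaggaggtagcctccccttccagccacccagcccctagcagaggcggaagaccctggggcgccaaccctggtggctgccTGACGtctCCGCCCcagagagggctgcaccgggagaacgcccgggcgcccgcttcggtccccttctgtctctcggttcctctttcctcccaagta
The window of Ptpn5 held the GC box 2 times and no TGACG, and that of Dgkg held each of them 1 time.

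Of the other genes for non-receptor tyrosine phosphatases, 2 rose and 1 did not pass the test. Ptpn13 rose from 1128, 856 and 1146 to 1451, 1867 and 1899, a ratio of 1.67 (log2 fold change 0.74 ± 0.15, adjusted p = 0.00893). Ptpn12, whose product acts on focal adhesion proteins, rose from 1408, 1255 and 1417 to 1682, 2398 and 2058, a ratio of 1.5 (log2 fold change 0.58 ± 0.14, adjusted p = 0.0131). Ptpn3 had 1043, 1046 and 952 in naive and 1032, 829.8 and 820.2 in SNT libraries and its groups overlapped (log2 fold change -0.19 ± 0.11, adjusted p = 0.19).

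Dual-specificity phosphatases remove phosphate from both tyrosine and threonine, and several of them switch off MAP kinases. Dusp16, which acts on the JNK and p38 kinases, rose from 151, 149.7 and 193 to 379, 569 and 479, a ratio of 2.89 (log2 fold change 1.51 ± 0.18, adjusted p = 0.00258). Dusp26, a MAP kinase phosphatase of neural tissue, rose from 1671, 1890.3 and 1564 to 3528, 3271 and 3796, a ratio of 2.07 (log2 fold change 1.05 ± 0.10, adjusted p = 0.00166). In Dusp26 SNT 2 was the lowest SNT library, as it was in Ptpn5. Dusp15 fell from 3797, 2858 and 3927 to 2842, 1987 and 2694 (log2 fold change -0.50 ± 0.18, adjusted p = 0.0534); SNT 1 was just below the lowest naive library, and the adjusted p was 0.158 without naive 1.

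Both phosphoinositide kinase genes rose, as did 35.2% of genes with a symbol. Pip5k1b, which makes the lipid that phospholipase C cleaves, rose from 366, 359 and 356 to 676, 669 and 793, a ratio of 1.98 (log2 fold change 0.98 ± 0.092, adjusted p = 0.00169). Pik3ca, the catalytic p110 alpha subunit of PI3 kinase, rose from 857, 774 and 806 to 1364, 1282 and 1566, a ratio of 1.73 (log2 fold change 0.78 ± 0.095, adjusted p = 0.00269). The groups were apart in both genes, and the SNT libraries were close together.

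A further 3 genes matched the family names only. Prkcsh, a subunit of glucosidase II of the endoplasmic reticulum, rose (log2 fold change 0.39 ± 0.095, adjusted p = 0.0151), and so did Mapk1ip1l (log2 fold change 0.28 ± 0.079, adjusted p = 0.023). Pde12, a mitochondrial RNA exonuclease, did not pass the test (log2 fold change -0.19 ± 0.10, adjusted p = 0.148). Without these, 43 of 50 members were differentially expressed, 21 higher and 22 lower.

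The balance between relatives was followed as the ratio of 2 members within a library, which does not depend on how the libraries were scaled. The ratios of 18 pairs within a family or pathway step were compared, and the groups did not overlap in 14. This share is close to that over all 1378 pairs of members, 80%, so the number of pairs without overlap says nothing particular of relatives. With 3 libraries against 3 the exact permutation test (two-sided) cannot give a p below 0.1, which these 14 pairs reached. Their adjusted p over the 18 pairs was 0.129. None passed the false discovery rate of 0.1 used for the genes, and none could, because a call needs an adjusted p below 0.1. In 5 of the pairs 1 gene rose and the other fell: Gnai1 and Gnai2, Prkd1 and Prkd3, Camk2b and Camk2d, Camk2g and Camk2d, and Mapk11 and Mapk14. As 23 of the 53 members were called higher and 22 lower, opposite calls are common between any 2 members. The number of such pairs therefore says nothing particular of relatives either.

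The largest shift was that of Camk2g over Camk2d. Its log2 ratio was -0.34, -0.27 and -0.43 in naive and -1.93, -3.01 and -2.90 in SNT libraries, a difference of -2.27. For Camk2b over Camk2d the log2 ratio went from -1.09, -1.20 and -1.05 to -2.60, -3.16 and -3.07, a difference of -1.83. The naive libraries were within 0.2 of each other in these ratios, and both shifts were larger than that. The SNT libraries spread more. For Camk2g over Camk2d the standard deviation was 0.59 in SNT and 0.077 in naive libraries, and for Camk2b over Camk2d 0.30 and 0.078. Prkd1 over Prkd3 went from -0.40, -0.11 and -0.60 to -1.07, -2.53 and -2.10, a difference of -1.53 on the log2 scale. SNT 1 showed the smallest shift in each of these 3 pairs. The log2 ratio of Mapk11 to Mapk14, the p38 genes, changed sign, from 0.26, 0.64 and 0.32 to -0.28, -1.12 and -0.75. The difference was -1.13, and for Gnai1 over Gnai2 it was -0.93.

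Shifts also occurred between genes that moved in the same direction. Ptpn5 over Ptpn1 changed from -1.23, -0.97 and -1.76 to 0.40, -0.073 and 0.63, a difference of 1.64 on the log2 scale, although both rose. Both AMPK gamma subunit genes fell, and the log2 ratio of Prkag1 to Prkag2 went from -0.28, -0.42 and -0.30 to 0.11, 0.91 and 0.71. The groups of Gnal over Gnaz were apart but by little, -0.23. In the 5 pairs without overlap in which a gene had not passed its own test, the difference was -0.93 for Ptpn3 over Ptpn13, -0.65 for Pde4b over Pde7b, -0.57 for Prkca over Prkcd, 0.45 for Akap6 over Akap11 and 0.31 for Akap8 over Akap8l. It was 0.44 for Map4k4 over Map4k5.

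The groups overlapped in 4 pairs. The difference was 0.20 for Dgkg over Dgkh (exact p = 0.6), the diacylglycerol kinases that fell together, and 0.14 for the PKA subunits Prkacb over Prkar2b (exact p = 0.4). It was -0.33 for Gnb1 over Gnb2 and -0.47 for Dusp26 over Dusp16 (exact p = 0.2 in each). With this number of libraries such values do not show that the ratios were alike.

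**Figure D4:**
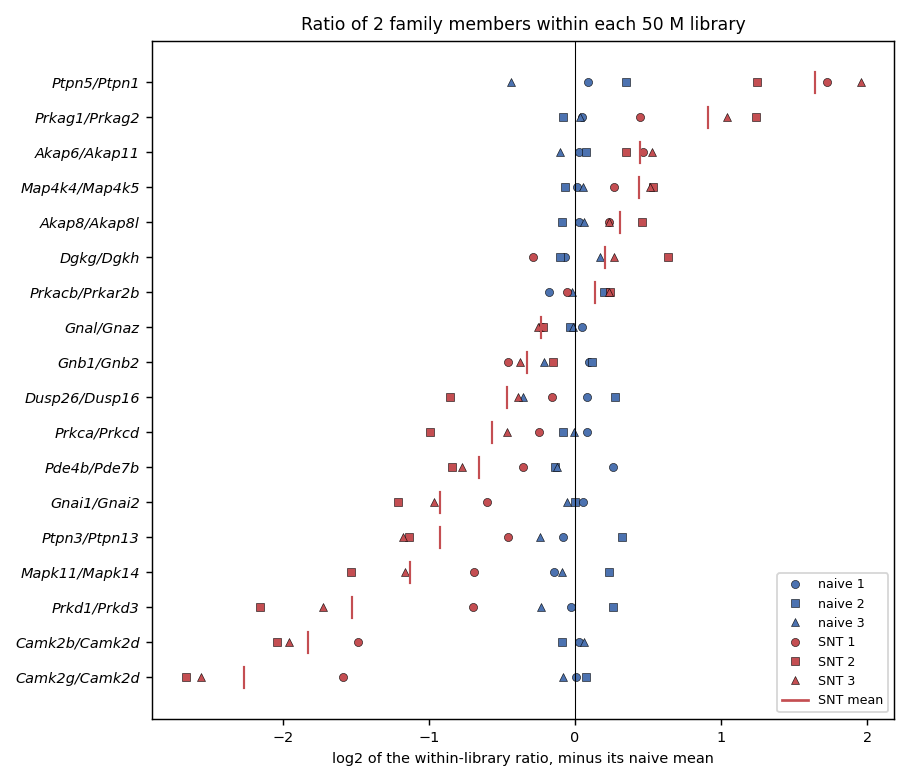
Log2 ratio of 2 members within each of the 6 libraries of 50 M reads, minus the mean of the 3 naive libraries; each point is 1 library and the red line is the mean of the 3 SNT libraries. The points of the groups are apart in 14 of 18 pairs, with the largest shifts in Camk2g over Camk2d (-2.27), Camk2b over Camk2d (-1.83) and Ptpn5 over Ptpn1 (1.64).

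A list of 62 other genes of the same pathways, not matched by the family names, was tested in the same fit. Of these 40 were differentially expressed (64.5%), a share between those of all genes tested (58.5%) and of genes with a symbol (71.4%). The median log2 fold change was -0.13. Of the 40, 12 were higher and 28 lower, against 29.2% and 29.4% of all genes tested and 35.2% and 36.2% of those with a symbol, but with equal totals the split was 18 higher and 19 lower. Among genes of calcium and calmodulin signaling 2 of 12 rose and 7 fell, and with equal totals 3 rose and 7 fell. Among receptors, their kinases and effectors of cyclic AMP, 5 of 12 rose and 4 fell (6 and 2 with equal totals). In the path from receptor tyrosine kinases to MAP kinases 1 of 13 rose and 7 fell (3 and 5 with equal totals), and in that of PI3 kinase, phosphoinositides and mTOR 2 of 12 rose and 5 fell (3 and 4). Among serine/threonine and receptor tyrosine phosphatases 2 of 13 rose and 5 fell, but with equal totals 3 rose and 1 fell.

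Only 5 of these genes were called with an absolute log2 fold change of at least 1. Gabbr2, a subunit of the GABA-B receptor, which signals through Gi proteins, fell from 5394, 5874 and 4634 to 2799, 950.4 and 1231. The groups were apart, with SNT 1 above the other SNT libraries, and the ratio was 0.313 (log2 fold change -1.83 ± 0.37, adjusted p = 0.00835) and 0.206 without SNT 1. The other subunit, Gabbr1, chosen here after its values were seen, had 13133, 12962 and 12070.0 in naive and 11572, 8259 and 10349 in SNT libraries, a ratio of 0.791 (log2 fold change -0.35 ± 0.14, adjusted p = 0.0718, but 0.247 with equal totals). Grk4, a kinase that desensitises G protein-coupled receptors, rose from 77.2, 76.4 and 78.6 to 148, 225 and 167, a ratio of 2.33 (log2 fold change 1.19 ± 0.18, adjusted p = 0.00418). Nfatc1, a transcription factor activated by the calcium-dependent phosphatase calcineurin, rose from 159, 135 and 214 to 309, 348 and 403, a ratio of 2.09 (log2 fold change 1.07 ± 0.19, adjusted p = 0.00607).

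The last pair of these genes are markers of other cells. Erbb3, the neuregulin receptor of Schwann cells, had a ratio of 2.15 (log2 fold change 1.09 ± 0.15, adjusted p = 0.00369) and Ptprc, the leukocyte phosphatase CD45, a ratio of 4.18 (log2 fold change 2.05 ± 0.47, adjusted p = 0.0118). Both are also in the marker lists above. So is Inpp5d of the PI3 kinase path, which rose by less (log2 fold change 0.65 ± 0.24, adjusted p = 0.0639, but 0.183 without naive 1).

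The runs at lower depth gave similar counts for the members. In the 25 M runs 45 members were differentially expressed, 24 higher and 21 lower, against 55.9% of all genes tested (27.7% higher and 28.3% lower). In the 17 M runs 44 were, 24 higher and 20 lower, against 52.3% (26% higher and 26.4% lower). All 3 depths called 42 members, against 46.2% of the 16620 genes tested at each depth, and the sign of the fold change was the same at all 3 in 50. At 50 M the share called was higher among genes with a symbol (71.4%) than among all genes tested (58.5%). For genes with a symbol it was not computed at the lower depths. Values at 50 M, 25 M and 17 M stood close together for the genes with the larger changes. The log2 fold change was 2.72, 2.78 and 2.57 for Ptpn5, 1.06, 1.08 and 1.10 for Camk2d and -2.35, -2.41 and -2.33 for Dgkh. Calls that depended on the depth were those of Pde7b, called at 25 M and 17 M only, Pde4b and Map2k5, not called at 17 M, and Prkag1, not called at 25 M. Because the runs share their libraries, they show the error of sequencing and not that between animals.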

How the data were processed

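RNA-seq libraries of poly(A) RNA (TruSeq) were sequenced on the Illumina GAIIx. The authors mapped the reads to the rat genome Rn5 with Bowtie, dropped reads with several matches, and counted reads over Ensembl exons without using strand, leaving out exons that overlap another gene. They deposited the signal as counts divided by DESeq size factors, in 1 table per depth. Members with near-identical paralogs are thus undercounted, and antisense RNA cannot be told apart from its partner gene. The deposited values were whole multiples of 1 read in 100% of cases (tolerance 1e-06), which gave back the read counts.

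The main test was limma (3.58.1, R 4.3.3) with a variance trend, on log2 of the normalized count after adding 1. It was two-sided, at a false discovery rate of 0.1 (Benjamini-Hochberg, all 17930 genes with reads in at least 3 of 6 libraries), with no covariate. Fold changes of low counts are understated on this scale, and ratios are SNT means over naive means. Symbols came from a shortened list of 1999 genes, which the authors chose for their intronic reads, and 1 gene with a matching symbol is not reported here. Members called at all depths with an absolute log2 fold change of at least 0.8 and without overlap, and members of the pairs, are given in every library, as are other members of a role. Other pathway genes are named from an absolute log2 fold change of 1, with Gabbr1 and Inpp5d beside them. Members, gene lists and pairs were chosen with earlier results of these data known. The alternatives were edgeR 4.0.16 and DESeq2 1.42.0 on the read counts, pseudocounts of 0.5 and 5, other filters and scaling, a variance prior without a trend, a false discovery rate of 0.05, a replicate block, leaving out each library, and the other runs. Promoter windows were taken from RefSeq (GRCr8).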

Additional observations from a re-analysis of the deposited data

How the results depend on the processing

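Under edgeR (10366 genes called of 17930) and DESeq2 (9788) on the recovered reads 45 members were called, as with limma (10497). Over the other settings the number of members called ran from 39 with no filter to 47 with the 3 runs summed. For the other pathway genes it ran from 32 at a false discovery rate of 0.05 to 43 with the runs summed. Among all genes, 9404 of 26172 were called with no filter and 11264 of 18541 with the runs summed. Leaving out 1 library gave 36 (without naive 1) to 47 members (without SNT 1) and 30 to 46 other pathway genes. The calls among all 17930 genes moved the same way, with 8568 without naive 1 and 11490 without SNT 1. Of the 45 called members, 35 were called under all alternatives and 10 were not under some: Gna12, Gnai2, Adcy5, Pde4b, Prkacb, Prkar2b, Akap11, Prkag1, Map2k5 and Dusp15. Of the members not called, 4 were called in some alternative: Pde7b, Akap8l, Ptpn3 and Pde12. The call was lost by 9 members without naive 1, 8 without naive 2, 3 without naive 3, 5 without SNT 2 and 6 without SNT 3, and by none without SNT 1. The cause was not tested.

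The sign changed only in members that had not passed the test. For Gnb1 the log2 fold change was -0.12 in the 25 M runs, -0.00333 with the runs summed, and -0.16 without SNT 2 and -0.10 without naive 3. For Akap6 it was 0.11 with equal totals and ran from -0.19 without SNT 1 to 0.15 without SNT 2 when 1 library was left out, with 0.037 without naive 2. For Prkcd it was 0.017 in the 25 M runs, 0.11 with equal totals and 0.0053 without naive 2, and for Mapkapk5 0.024 in the 17 M runs, 0.14 with equal totals, and from -0.045 without SNT 2 to 0.0064 without SNT 1. The difference in the log2 ratio of Dgkg to Dgkh ran from -0.011 without SNT 2 to 0.45 without SNT 1. Differences that moved by more than the spread between libraries were those of Gnb1 over Gnb2 in the 25 M runs (-0.51), of Pde4b over Pde7b in the 17 M runs (-1.03) and of Gnal over Gnaz in the 25 M runs (-0.38), the 17 M runs (-0.39) and with the runs summed (-0.30), all with the sign of the 50 M value.

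For libraries with the same replicate number the correlation of deviations was 0.036, -0.17 and 0.082, against -0.22 to 0.19 for unlike numbers. Such values from 3 libraries per group cannot show whether the numbers pair the samples. With the number as a replicate block 42 members and 34 other pathway genes were called. With 3 libraries per group, a member that misses the threshold is not shown to be unchanged.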
